A study of Mus musculus with 8 samples.

Results

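The La-related proteins are RNA-binding proteins named after La, and the mouse genes described here are Larp1, Larp1b, Larp4, Larp4b, Larp6 and Larp7. They were taken by symbol from the table of counts per gene, where the 6 genes occupy 7 of 37224 rows, because Larp1b is split over 2 Ensembl identifiers. The genes were chosen with their difference between Setd1b knockout and control oocytes in view, so their levels and fold changes are given as a description with no test. Larp4, Larp4b, Larp7 and the downstream row of Larp1b were lower in knockout oocytes, the upstream row of Larp1b was higher, Larp1 was scarce, and Larp6 had no read in any library.

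All members of the family carry a La module, a pair of RNA-binding folds, and differ in the RNA they hold. La itself, encoded by Ssb, binds the uridine-rich ends of new RNA polymerase III transcripts. LARP7 stays on the 7SK RNA, which holds the elongation kinase P-TEFb inactive, and on U6 RNA. LARP1 and LARP1B bind mRNAs with a terminal oligopyrimidine (TOP) tract and answer to the kinase mTORC1. LARP4 and LARP4B bind the cytoplasmic poly(A)-binding protein and stabilise or help to translate mRNA, and LARP6 is known for binding collagen mRNAs. A mature oocyte is transcriptionally silent and lives on stored mRNA, so the proteins that bind mRNA tails and caps act there on the stock laid down during growth.

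The samples were 8 single oocytes at metaphase of the second meiotic division, 4 from superovulated females with a conditional knockout of Setd1b (Setd1bGdf9cKO in the labels) and 4 from superovulated control females. The product of Setd1b methylates histone H3, and Gdf9, after which the knockout is named, is expressed in growing oocytes. The labels give neither the deleted exons, the alleles of the controls, the strain, the age, nor which oocytes came from the same female, so the p-values speak only for variation among these single oocytes, some of which may be technical. Knockout libraries held 9488899 to 11313502 counts and control libraries 11029602 to 13519404 counts.

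Levels are given as CPM, the usual counts-per-library scale with totals adjusted for composition, or as RPKM, the same CPM per kilobase of exon. Larp rows are ranked by level in RPKM, whereas the marker lists are summed and ranked in CPM, without division by length. Setd1b itself had 4.42, 5.04, 2.96 and 3.53 CPM in knockout oocytes 1 to 4, against 10.7, 12.8, 9.23 and 10.9 CPM in control oocytes 1 to 4. Its log2 fold change was -1.44 ± 0.41 (SE, n = 4 per group; adjusted p = 0.0221 in edgeR's quasi-likelihood test), with adjusted p-values of 0.0519 without knockout replicate 3, 0.054 without control replicate 2 and 0.0894 when scaled by library totals alone. All 15 oocyte markers examined were detected and passed the filter on low counts, among them Gdf9, Bmp15 and Zp3. Of 20 markers of cumulus and granulosa cells, 10 had no count in any library, including Foxl2, Amh, Lhcgr and Tnfaip6, while Esr2 (63.0 CPM in knockout and 110 CPM in control oocytes), Cyp19a1 (49.2 CPM in knockout and 88.7 CPM in control oocytes), Kitl and Nr5a2 made up most of the rest, and the summed level of the list was 133 to 197 CPM in knockout and 240 to 257 CPM in control oocytes. Of 19 matched markers of blood, stroma and oviduct, 10 were at 0, including Ptprc, Cdh5 and Pax8, and Pecam1 (33.7 CPM in knockout and 59.9 CPM in control oocytes) and Epcam (2.97 CPM in knockout and 32.9 CPM in control oocytes) were its most abundant members in control oocytes. That list summed to 38.9 to 61.9 CPM in knockout and 104 to 129 CPM in control oocytes. At an adjusted p under 0.05, which 13.6% of all tested genes passed as higher and 12.2% as lower in knockout oocytes, the 15 oocyte markers had 6 members higher and 3 lower, the cumulus list 2 of 5 tested lower, and the other list 1 of 6 tested higher and 3 lower. In the list of blood, stroma and oviduct, the member called higher was Cd68, at 7.88 CPM in knockout and 1.35 CPM in control oocytes. Control libraries alone would not have passed Cd68 through the filter on low counts. Of the abundant markers named, Esr2, Cyp19a1, Pecam1 and Epcam were among those called lower. These sums moved in the same direction as the Larp genes that were lower, and their part in those differences was not tested. Levels are relative to the other RNA of the same oocyte, so a gene with less mRNA cannot be told apart from an oocyte with more of other mRNAs. Knockout libraries had 11617 ± 490 genes with 10 or more counts and control libraries 10269 ± 368 such genes (SD, n = 4 each). By a two-sided exact permutation test that difference had p = 0.0286, which no design of 4 against 4 can go below.

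On the mouse build mm10, as in the count table, Larp4 (ENSMUSG00000023025) lies on chromosome 15 from 99970074 to 100016351 and Larp4b (ENSMUSG00000033499) on chromosome 13 from 9093905 to 9173086. Larp7 (ENSMUSG00000027968) lies on chromosome 3 from 127536954 to 127553348 on the reverse strand, Larp1 (ENSMUSG00000037331) on chromosome 11 from 58009064 to 58062034, and Larp6 (ENSMUSG00000034839) on chromosome 9 from 60712989 to 60738801. The introns of Larp7 hold 5 microRNA genes on the opposite strand (Mir302a, Mir302b, Mir302c, Mir302d and Mir367) with no count in any library, and no Larp exon overlapped an exon of another row of the table.

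The start regions of the 6 genes, 250 bases before to 50 after the annotated start in RefSeq (GRCm38.p6), are rich in the dinucleotide CG, which is read the same on both strands. The window held 29 CG in Larp4, 30 in Larp7, 30 in Larp1b, 34 in Larp6, 39 in Larp4b and 61 in Larp1, against a median of 7 and an upper quartile of 20 over 32851 windows of the same length, 94.6% of which held at least 1. CG content did not separate the genes by level, since Larp1 and Larp6, the scarce and the undetected gene, were among the richest. Ssb had 18. The windows of Larp4, the most abundant member, and of Larp1b, whose annotated start lies by the row that was higher in knockout oocytes, are printed with each CG in capitals. The Larp4 window is chr15:99972530-99972829 and the Larp1b window is chr3:40950536-40950835, both on the forward strand. These starts are not those of the count rows. The Larp4 row begins before its window, at 99970074, and the Larp1b window holds the whole first exon of the upstream row (40950631 to 40950684).
Larp4: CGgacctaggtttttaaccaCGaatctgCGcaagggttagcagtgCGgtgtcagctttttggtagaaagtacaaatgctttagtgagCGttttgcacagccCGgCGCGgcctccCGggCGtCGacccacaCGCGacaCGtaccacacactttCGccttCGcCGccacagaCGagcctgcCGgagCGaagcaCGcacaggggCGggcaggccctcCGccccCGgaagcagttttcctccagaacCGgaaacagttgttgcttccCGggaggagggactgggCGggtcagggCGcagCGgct
Larp1b: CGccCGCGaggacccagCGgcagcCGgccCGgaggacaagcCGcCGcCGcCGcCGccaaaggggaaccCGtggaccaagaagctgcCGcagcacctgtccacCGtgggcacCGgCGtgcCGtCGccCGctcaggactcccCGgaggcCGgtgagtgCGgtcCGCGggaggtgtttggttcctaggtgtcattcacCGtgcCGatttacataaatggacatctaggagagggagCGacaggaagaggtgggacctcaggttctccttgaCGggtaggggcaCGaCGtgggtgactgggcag

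Larp4, which protects and stabilises mRNA through its contact with the poly(A)-binding protein, was the most abundant member per length in each library. It had 324, 341, 415 and 413 CPM in knockout oocytes 1 to 4, against 647, 583, 605 and 767 CPM in control oocytes 1 to 4. No knockout oocyte reached the lowest control oocyte. The means were 373 ± 47.4 CPM in knockout and 650 ± 82.2 CPM in control oocytes (SD, n = 4 each), resting on 17920 and 28178 counts, and the log2 fold change was -0.80 ± 0.16 (SE). The coefficient of variation among oocytes of a group was 12.7% in knockout and 12.6% in control oocytes, the smallest of the 6 detected rows in either group.

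Larp4b, its closest relative in the family, differed by more. It had 126, 134, 189 and 135 CPM in knockout oocytes 1 to 4, against 300, 308, 301 and 391 CPM in control oocytes 1 to 4. Knockout replicate 3 and control replicate 4 were each high within their group, and the groups did not overlap. The log2 fold change was -1.15 ± 0.18 (SE), a knockout mean of 44.9% of the control mean. The ratio of Larp4 to Larp4b in RPKM was 1.79, 1.77, 1.52 and 2.14 in knockout oocytes, against 1.499, 1.31, 1.398 and 1.36 in control oocytes. The ratio, which does not depend on how libraries are scaled, was thus higher in each knockout oocyte, by a narrow margin for replicate 3.

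**Figure D1:**
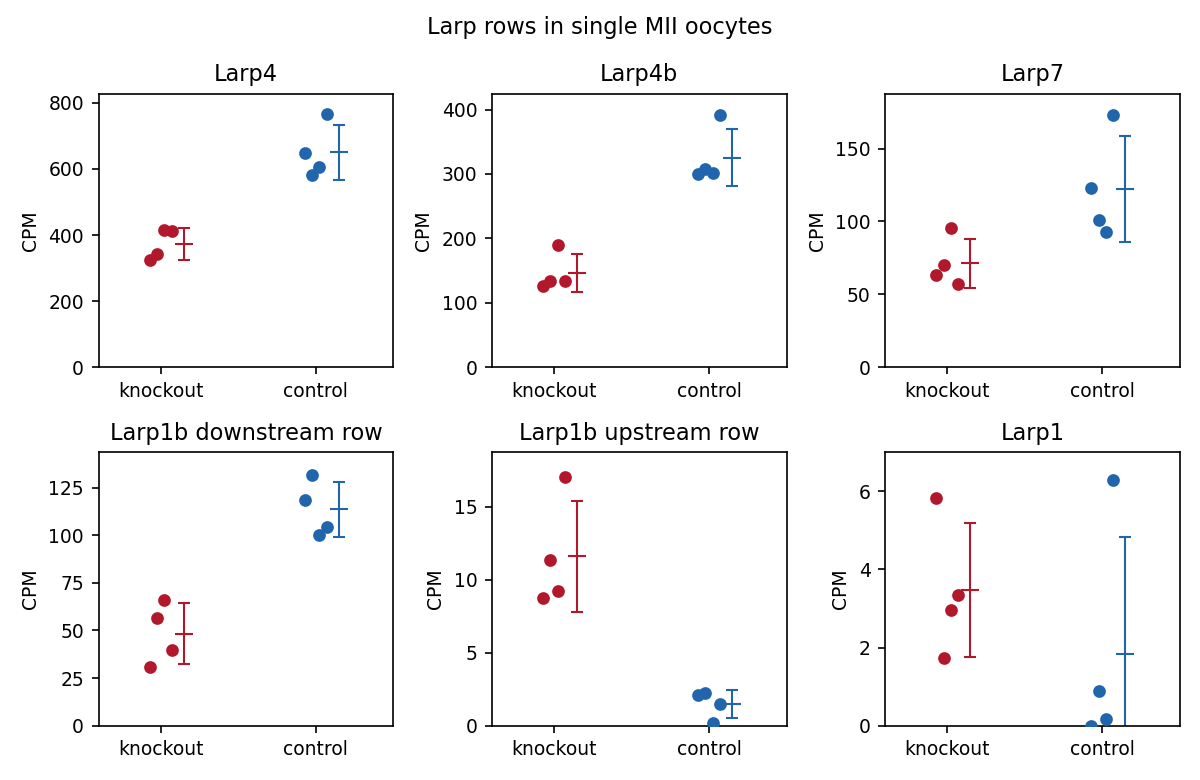
CPM of the 6 detected Larp rows in single oocytes, knockout left of control in each panel; points are oocytes, the dash is the mean and the bar the SD (n = 4), and the bar of Larp1 in control oocytes is cut at 0. The groups are apart in Larp4, Larp4b and both Larp1b rows, with the upstream row the other way round, and overlap in Larp7 (57.2 to 95.4 CPM in knockout, 92.6 to 173 CPM in control oocytes) and in Larp1.

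Larp7 encodes the protein that binds the end of 7SK RNA within the P-TEFb inhibitory complex. It had 63.0, 70.1, 95.4 and 57.2 CPM in knockout oocytes 1 to 4, against 123, 101, 92.6 and 173 CPM in control oocytes 1 to 4. Knockout replicate 3 lay above control replicate 3, so the groups overlapped. The log2 fold change was -0.77 ± 0.24 (SE), and leaving out 1 oocyte at a time it ran from -0.95 to -0.57, the last without control replicate 4. The ratio of Larp4 to Larp7 in RPKM overlapped between the groups, at 1.51 ± 0.352 in knockout and 1.54 ± 0.246 in control oocytes (SD, n = 4 each).

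Larp1b, the paralog of Larp1, gave opposite values at its ends. The upstream row (ENSMUSG00000037814, 10 exons, chromosome 3, 40950631 to 40977793) and the downstream row (ENSMUSG00000025762, 6 exons, 41021939 to 41040234) lie 44145 bases apart on the same strand. The deposited table gives both the name Larp1b. GENCODE M21 holds the downstream identifier as Larp1b and lacks the upstream identifier. Of the 15 transcripts of Larp1b in GENCODE M21, 7 touched exons of the upstream row, 8 touched exons of the downstream row, and 0 touched both. Coding sequence made up 66.6% of the upstream row and 16.7% of the downstream row.

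The downstream row had 31.1, 56.6, 66.2 and 39.6 CPM in knockout oocytes 1 to 4, against 119, 132, 99.96 and 104 CPM in control oocytes 1 to 4. Each knockout oocyte was lower, and knockout oocytes varied more, with a coefficient of variation of 32.97% against 12.8% in control oocytes. The log2 fold change was -1.23 ± 0.25 (SE). The upstream row had 8.76, 11.4, 9.25 and 17.0 CPM in knockout oocytes 1 to 4, against 2.09, 2.24, 0.165 and 1.5 CPM in control oocytes 1 to 4. Each knockout oocyte was higher, and the control values rested on 64 counts in all, 2 of them in replicate 3, against 554 counts in knockout oocytes. The log2 fold change was 2.95 ± 0.67 (SE). The upstream row passed the filter on low counts in 4 knockout and 3 control libraries. Control libraries alone would not have brought it among the tested genes.

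Per length, the upstream row stood at 0.738, 0.526, 0.365 and 1.12 times the downstream row in knockout oocytes 1 to 4, and at 0.0461, 0.0444, 0.00432 and 0.0377 times it in control oocytes. In control oocytes nearly all Larp1b signal therefore lay on the downstream exons, and in knockout replicate 4 the upstream exons had the higher level. With the rows summed into a single gene, a choice made after the data were seen, the log2 fold change of Larp1b was -0.94, and the higher level of the upstream row was no longer visible. The authors' deposited table listed both rows, with unshrunken log2 fold changes of -1.27 for the downstream and 2.92 for the upstream identifier.

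**Figure D2:**
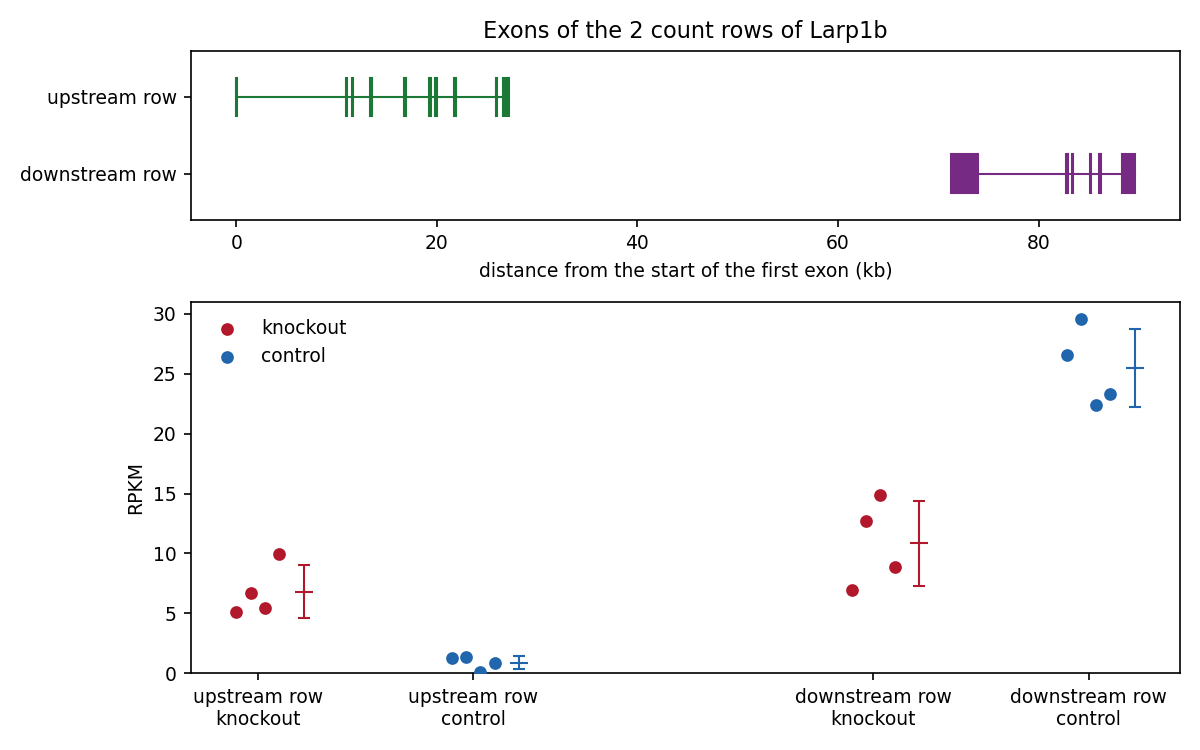
Top, exons of the upstream and downstream count rows of Larp1b (boxes) by distance in kb from the first exon; bottom, RPKM of each row in single oocytes, knockout left of control, with the mean (dash) and SD (bar, n = 4). The upstream row averages 6.80 RPKM in knockout and 0.879 RPKM in control oocytes, and the downstream row 10.8 RPKM in knockout and 25.5 RPKM in control oocytes.

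Larp1, the main TOP mRNA binder of most cells, was at the edge of detection. It had 78, 23, 33 and 36 counts in knockout oocytes 1 to 4, against 0, 11, 2 and 63 counts in control oocytes 1 to 4. The control counts lay mostly in replicate 4, and the groups overlapped. The log2 fold change of 0.92 ± 1.17 (SE) was smaller than its error, and was 3.24 ± 1.14 without control replicate 4. Larp1 passed the filter on low counts in 4 knockout libraries and 1 control library, so its place among the tested genes came from the knockout group. Larp6 had 0 counts in each of the 8 libraries, which allows up to 0.0253 RPKM over the knockout and 0.0281 RPKM over the control libraries (3 counts over the group, counting error only). It was not detectable at this depth.

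In RPKM, control oocytes held Larp4 at 96.6 ± 12.2, Larp4b at 69.4 ± 9.40, Larp7 at 65.1 ± 19.2, the downstream row of Larp1b at 25.5 ± 3.26, its upstream row at 0.879 ± 0.554 and Larp1 at 0.269 ± 0.440 (SD, n = 4). Knockout oocytes held Larp4 at 55.4 ± 7.04, Larp7 at 38.0 ± 8.96, Larp4b at 31.2 ± 6.23, the downstream row of Larp1b at 10.8 ± 3.57, its upstream row at 6.80 ± 2.22 and Larp1 at 0.508 ± 0.252. Larp4b and Larp7, neighbours in both orders, differed by less than the SD of Larp7 in either group, and in control oocytes the upstream row of Larp1b overlapped with Larp1. Larp4 lay above 91.1% of tested genes in knockout and 93.9% in control oocytes, so the family's leading member is an abundant oocyte mRNA.

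The summed RPKM of the family was 121, 136, 173 and 140 in knockout oocytes 1 to 4, against 254, 237, 226 and 315 in control oocytes 1 to 4. Within that sum, Larp4b made up 21.7% ± 1.22 in knockout and 27.0% ± 1.397 in control oocytes (SD, n = 4), with no overlap. The upstream row of Larp1b made up 4.85% ± 1.69 in knockout and 0.340% ± 0.230 in control oocytes. The shares of Larp4 (39.1% ± 3.63 in knockout, 37.6% ± 1.62 in control oocytes) and Larp7 (26.5% ± 3.27 in knockout, 24.9% ± 3.39 in control oocytes) overlapped. Shares do not depend on scaling between libraries.

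**Figure D3:**
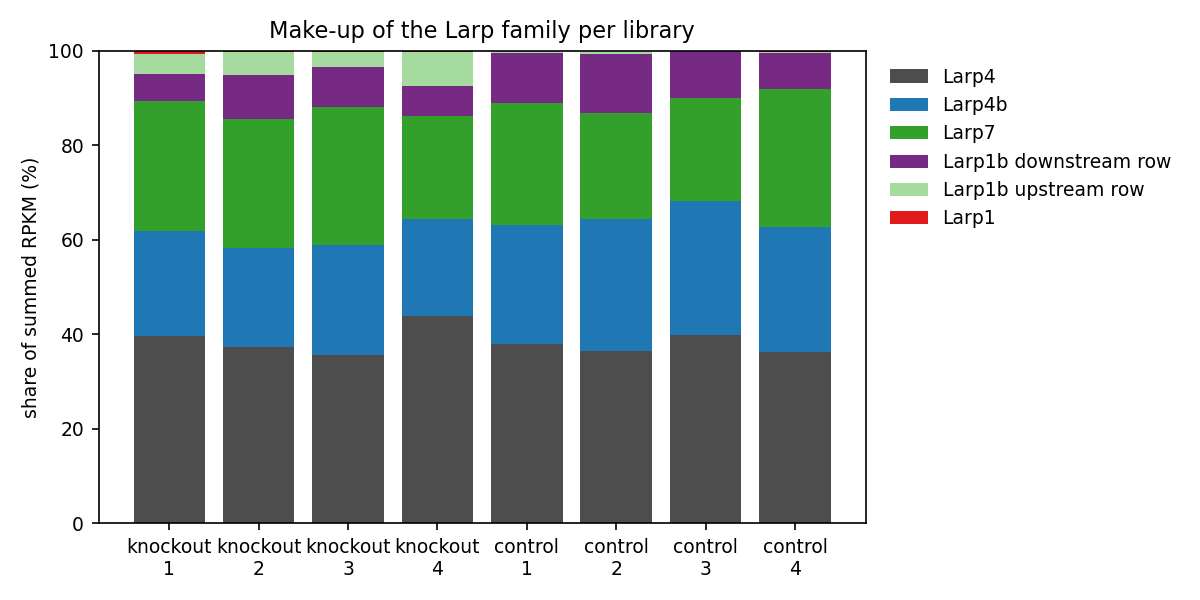
Share of each Larp row in the summed RPKM of the family (stacked bars, %), 1 bar per oocyte, knockout left of control. Larp4 is the largest share in each oocyte, Larp4b is smaller in each knockout oocyte, and the upstream row of Larp1b is visible mainly in knockout oocytes.

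Of the 7 rows, 6 passed the filter and entered the fit across 11066 genes. At an adjusted p under 0.05, 5 of the 6 were called, against 25.8% of all tested genes: 4 rows were called lower, against 12.2% of all tested genes, and 1 was called higher, against 13.6% of all. In 3 rows each knockout library lay below each control library (13.6% of tested genes), and in 1 row each lay above (17.6% of tested genes). Because the rows were chosen on this contrast, nothing is read from these counts. The Larp7 call was lost without knockout replicate 1, 2 or 4 or without control replicate 1 or 4, which leaves 3 rows called lower.

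Scaling and transcript length moved with these values. Scaled by library totals alone, the log2 fold changes were -0.40 for Larp4, -0.76 for Larp4b, -0.37 for Larp7 and -0.85 for the downstream row of Larp1b, while the median over the 11066 genes moved to 0.49, against 0.10 with TMM factors. Relative to that median, Larp4 stood at -0.89 in place of -0.90, Larp4b at -1.25 under both, Larp7 at -0.86 in place of -0.87 and the downstream row of Larp1b at -1.34 in place of -1.33. A change of factors moves all genes by nearly the same amount. The values relative to the median were therefore bound to be close, and nothing is read from their closeness. Over all tested genes the median log2 fold change was 0.33 in the shortest 2767 genes by exon length and -0.11 in the longest 2767. Larp4 and Larp1 belong to the longest set, and Larp7 and the upstream row of Larp1b to the shortest. With a trend on length removed from each library, the values relative to the median were -0.73 for Larp4, -1.22 for Larp4b, -1.10 for Larp7, -1.30 for the downstream and 2.63 for the upstream row of Larp1b.

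The 4 rows with a mean of at least 10 CPM over all libraries were set beside 6163 other genes by the root mean square difference of their log2(CPM + 1) profiles over the 8 libraries, each centred on its own mean. The profiles nearest to Larp4 were those of Wdr26 (0.0771) and Smarca5 (0.0851), and the median over all genes was 0.570. Nearest to Larp4b were Cecr2 (0.103) and B9d1 (0.105), to Larp7 Pan3 (0.0905) and Skap2 (0.0957), and to the downstream row of Larp1b Tubal3 (0.129) and Aph1c (0.174). Among the Larp rows themselves, Larp4 and Larp4b were nearest to each other (0.222), and Larp7 and the downstream row of Larp1b were farthest apart (0.426). The shared genotype difference enters each of these distances.

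Genes that work with the Larp proteins were examined as 6 lists, with p-values from the same fit. In that fit 25.8% of all tested genes were called, 13.6% higher and 12.2% lower. Control libraries alone would not have passed Lsm4, Polr3e, Eif2s3x, Eif3f or Tob1 through the filter on low counts. Their calls as higher are counted below with that limit. The list of La and partners of RNA polymerase III transcripts had 29 tested members, of which 6 rose, 1 fell and 22 did not pass, with a median log2 fold change of 0.49 against 0.10 for all tested genes. Its 24.1% called was near the share of all genes. Scaled by library totals alone it had 9 called higher and 0 lower in edgeR (1 lower at an unadjusted p under 0.05), and with the length trend removed 3 higher and 2 lower. The member that fell was Ssb, which encodes La. It had 787, 1104, 1208 and 686 CPM in knockout oocytes 1 to 4, against 2377, 1279, 1273 and 2615 CPM in control oocytes 1 to 4. Control replicates 2 and 3 lay close to the highest knockout oocyte, and the groups did not overlap. Its log2 fold change was -0.99 ± 0.28 (SE; adjusted p = 0.0205), and the adjusted p was 0.0631 without knockout replicate 1, 0.0644 without knockout replicate 4, 0.0524 without control replicate 1 and 0.0912 under scaling by library totals alone.

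The Lsm ring binds the end of U6 RNA or of mRNAs in decay. Of its 6 tested subunits 4 rose, against 13.6% of all tested genes called higher. Lsm5 was at 0.57 (adjusted p = 0.403) and Lsm8 at 0.46 (adjusted p = 0.520). The subunits were set apart from the list after their values were seen, so nothing is read from that count. Lsm2 averaged 30.99 ± 5.35 CPM in knockout and 12.3 ± 2.44 CPM in control oocytes (log2 fold change 1.34 ± 0.28, adjusted p = 0.00504). Lsm3 averaged 108 ± 36.2 CPM in knockout and 33.4 ± 14.2 CPM in control oocytes (log2 fold change 1.69 ± 0.34, adjusted p = 0.00446). Lsm4 had 10.3, 8.43, 7.002 and 5.49 CPM in knockout oocytes 1 to 4, against 5 counts over all control libraries, and rose (adjusted p = 0.000566). Its place among the tested genes came from the knockout group. Lsm6 rose by 1.76 on the log2 scale, a call lost without knockout replicate 1, 2 or 4 or control replicate 2 or 3. It was also lost with the length trend removed. Of 10 tested RNA polymerase III subunit genes, set apart in the same way, 8 did not pass, and Polr3a (1.07) and Polr3e (3.03, on 24 control counts) rose. Polr3e owed its place among the tested genes to the knockout group. The call of Polr3a was lost without knockout replicate 1 or 2 or control replicate 3, and that of Polr3e without any knockout replicate or without control replicate 1 or 3. With the length trend removed, neither Polr3a nor Polr3e was called. Without knockout replicate 1 the list had 3 members called, and without knockout replicate 2, knockout replicate 4 or control replicate 3 it had 4.

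Of 19 tested partners of LARP7 in the 7SK complex and the elongation machinery, 2 rose, 0 fell and 17 did not pass, 10.5% called against 25.8% of all tested genes, with a median log2 fold change of 0.30. Among those with a negative value, 1 had an unadjusted p under 0.05 in edgeR and 2 each in DESeq2 and voom, where the count called lower was 0 as well. Ell2, an elongation factor, averaged 34.3 ± 4.55 CPM in knockout and 11.5 ± 4.83 CPM in control oocytes (log2 fold change 1.58 ± 0.35, adjusted p = 0.00734). Mepce, the enzyme that caps 7SK RNA, averaged 47.4 ± 11.7 CPM in knockout and 19.2 ± 11.1 CPM in control oocytes (log2 fold change 1.301 ± 0.39, adjusted p = 0.0298). The adjusted p of Mepce ran from 0.0531 to 0.0938 when knockout replicate 1, 2 or 4 or control replicate 2 or 4 was left out. With the length trend removed it was 0.0715. Hexim2, a protein inhibitor of P-TEFb, was at 1.15 ± 0.55 (adjusted p = 0.148). Cdk9, the kinase of P-TEFb, was at 0.14 (adjusted p = 0.833).

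The list of mTORC1 and cap binding, the pathway that acts on LARP1, had 21 tested members, of which 1 rose, 4 fell and 16 did not pass, with a median of -0.29. Its 23.8% called was near the 25.8% of all tested genes. The Rag GTPase genes Rraga and Rragc, whose products bring mTORC1 to the lysosome, fell. Rraga averaged 149 ± 20.1 CPM in knockout and 242 ± 47.2 CPM in control oocytes (log2 fold change -0.69 ± 0.19, adjusted p = 0.0172). Rragc averaged 942 ± 108 CPM in knockout and 1329 ± 145 CPM in control oocytes (log2 fold change -0.49 ± 0.15, adjusted p = 0.0332). Eif4a1, an RNA helicase of the cap complex, and Cnbp, a binder of TOP mRNAs, fell as well, with log2 fold changes of -0.55 (adjusted p = 0.0256) and -0.42 (adjusted p = 0.0475). Lamtor1, an anchor of the Rag proteins, rose (53.6 ± 18.2 CPM in knockout and 20.4 ± 6.40 CPM in control oocytes, log2 fold change 1.397 ± 0.32, adjusted p = 0.00893).

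Scaled by library totals alone, 0 members of that list were called lower in edgeR, with 0 also at an unadjusted p under 0.05, and 3 were called higher; DESeq2 with its own factors called 5 lower. Mtor itself was at -0.59 (adjusted p = 0.118). Each fall was lost without at least 1 library: Rraga without knockout replicate 4, Rragc without knockout replicate 1, 2 or 3 or control replicate 2, Eif4a1 without knockout replicate 2, 3 or 4 or control replicate 3, and Cnbp without any 1 of the 8. The count of members called was 2 without knockout replicate 2, 3 or 4 and 3 without knockout replicate 1 or control replicate 2 or 3.

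TOP mRNAs other than those of ribosomal proteins are what LARP1 and LARP1B hold. Of 17 tested, 5 rose, 1 fell and 11 did not pass, with a median of 0.47 and 35.3% called, against 25.8% of all tested genes. The balance depended on the setting, with 3 called higher and 4 lower once the length trend was removed, and 7 higher and 0 lower in edgeR (0 lower at an unadjusted p under 0.05) when scaled by library totals alone. The elongation factor genes Eef2 and Eef1d rose, at 37.6 ± 8.30 CPM in knockout and 13.1 ± 5.97 CPM in control oocytes for Eef2 (log2 fold change 1.52 ± 0.36, adjusted p = 0.00942) and with a log2 fold change of 1.53 ± 0.38 for Eef1d (adjusted p = 0.0121). Eif2s3x, a subunit of the initiator complex, rose on only 27 control counts (3.55 ± 0.67, adjusted p = 0.0029). It was among the tested genes because of the knockout group. Nap1l1, a histone chaperone gene, fell (148 ± 24.5 CPM in knockout and 250 ± 36.1 CPM in control oocytes, log2 fold change -0.75 ± 0.18, adjusted p = 0.00978). Many TOP genes have processed pseudogenes of near-identical sequence, so their counts are uncertain.

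The poly(A)-binding proteins and the proteins that contact them, among which LARP1, LARP4 and LARP4B belong, moved in both directions. Of 21 tested members 5 rose, 6 fell and 10 did not pass, with a median of 0.47 and 52.4% called, against 25.8% of all tested genes. Of the 15 oocyte markers, 60.0% were called. The list was chosen with earlier results of these data known, so nothing is read from its share. Scaled by library totals alone, 9 were called higher and 3 lower. Paip2, which displaces poly(A)-binding protein from the tail, had 593, 722, 833 and 697 CPM in knockout oocytes 1 to 4, against 69.6, 20.8, 15.4 and 22.01 CPM in control oocytes 1 to 4 (log2 fold change 4.48 ± 0.44, adjusted p = 6.72e-05). Paip1, a partner that promotes translation, fell to 1249 ± 511 CPM in knockout oocytes, against 4001 ± 1600 CPM in control oocytes (log2 fold change -1.68 ± 0.34, adjusted p = 0.00446). Pabpc1l, the oocyte poly(A)-binding protein, rose (3.04, adjusted p = 0.000619) and Pabpn1l, its nuclear-type oocyte relative, fell (-3.18, adjusted p = 1.83e-05). Tob1, which links the tail to the CCR4-NOT deadenylase, rose (4.40, adjusted p = 0.00183), and its value was 5.89 without control replicate 3. Its place among the tested genes came from the knockout group.

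The genes of the PAN2-PAN3 deadenylase fell, with log2 fold changes of -0.62 for Pan2 (adjusted p = 0.0111) and -0.84 for Pan3 (adjusted p = 0.0225), and so did Tnrc6b, of the microRNA silencing complex, at -0.76 and Ythdf3, a reader of methylated mRNA, at -0.97. Pabpc1, the main somatic poly(A)-binding protein, was at 0.47 (adjusted p = 0.649), and Rack1, a ribosomal scaffold that LARP4 binds, at 0.09 (adjusted p = 0.782). Scaled by library totals alone, Pan2, Pan3 and Tnrc6b were not called (adjusted p = 0.287, 0.124 and 0.282 in that order). The call of Pan3 was lost without knockout replicate 1, 2 or 4 or control replicate 4 and that of Tnrc6b without knockout replicate 1 or 3 or control replicate 3, and 7 members of the list were called without knockout replicate 1.

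For LARP6, whose gene had no read, the main target mRNAs were also at or near 0, since Col1a2 and Col3a1 had no count in any library and Col1a1 reached at most 0.093 CPM, in knockout replicate 4. Of 13 tested partners and collagen enzymes, 1 rose, 3 fell and 9 did not pass, with a median of 0.23. Its 30.8% called compares with 25.8% of all tested genes. P4ha1, a collagen prolyl hydroxylase gene, averaged 15.7 ± 6.43 CPM in knockout and 41.3 ± 15.4 CPM in control oocytes (log2 fold change -1.39 ± 0.37, adjusted p = 0.0167). Tram2, whose product aids collagen export, and the non-muscle myosin gene Myh9 fell by 1.305 (adjusted p = 0.0191) and by 0.72 (adjusted p = 0.0341) on the log2 scale, and Lonp1, which encodes a mitochondrial protease, rose (log2 fold change 1.79, adjusted p = 0.00129). The adjusted p of Myh9 ran from 0.0758 to 0.0963 without knockout replicate 1, 2 or 3 or control replicate 3 or 4, and that of Tram2 from 0.052 to 0.0614 without knockout replicate 1, 2 or 4 or control replicate 2. The list had 2 members called without knockout replicate 1 or 2, and scaled by library totals alone it had 3 called higher and 0 called lower in edgeR (2 lower at an unadjusted p under 0.05).

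**Figure D4:**
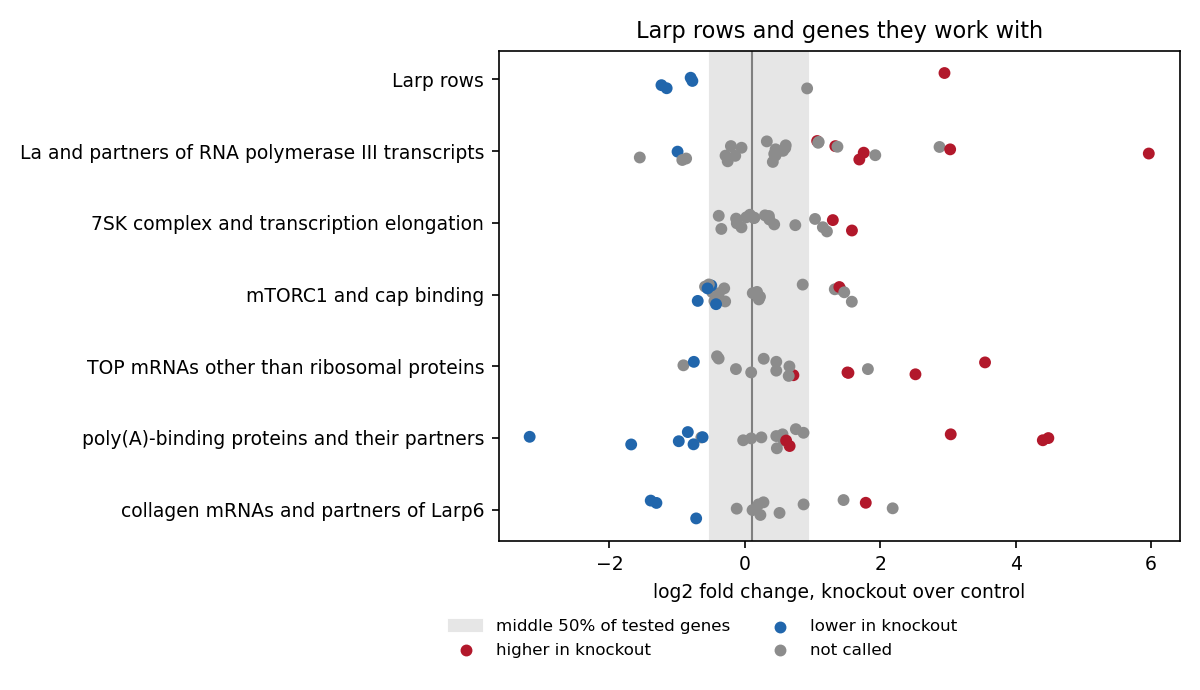
Log2 fold change of knockout over control for the 6 tested Larp rows (top) and the tested genes of 6 lists; each point is a row, red is called higher and blue lower in knockout at an adjusted p under 0.05, grey not called, the band holds the middle 50% of all tested genes and the line is their median. The list of poly(A)-binding proteins spreads from -3.18 to 4.48, and the highest value of the 7SK list is 1.58.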

How the data were processed

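Per the labels' protocols, cDNA was made from lysed single oocytes by the SMARTer Ultra Low method, which starts at poly(A) tails, marks no strand and carries no molecular identifiers, and NEBNext libraries were sequenced as 75-bp single reads. A measured level therefore reflects abundance and polyadenylation, and the upper limit given for Larp6 covers counting error only, while SD and SE include the spread between oocytes. Per the submitters' processing notes, GSNAP, featureCounts 1.4.4, DESeq2 1.3.79 and mm10 were used. Per the file headers, the deposited counts were made with featureCounts on Ensembl release 69 at a minimum mapping quality of 1, without a strand setting and without an option for multiply mapped reads. The authors' deposited comparison lists 2709 genes, none with an adjusted p-value above 0.009996, with shrunken and unshrunken log2 fold changes, their error and statistic (scores without a fixed range), a normalized signal per library and RPKM; its gene positions differ from those of the count table and were not used.

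Genes were tested in edgeR 4.0.16 (R 4.3.3) by quasi-likelihood, with genotype as the only term, after filterByExpr and with TMM factors. Benjamini-Hochberg adjustment ran over 11066 genes with a threshold of 0.05. CPM uses totals multiplied by TMM factors, and RPKM divides it by exon length. The SE follows from the log2 fold change and the F statistic. Simulated counts with known changes were used to check the fit. Of the rows, 35449 took their symbol from a table of Ensembl names and 10 from the deposited comparison, including the upstream Larp1b row. The members, lists and tests were chosen with earlier results of these data known. Named are the Larp genes, Setd1b, Ssb, the 4 members of each list with the smallest p (3 of the 202 written list and marker entries matched no row) and the 2 nearest profiles of each Larp gene; 1 list member that the rule names is counted but not reported here, and other list members named here (Lsm5, Lsm6, Lsm8, Polr3a, Polr3e, Cdk9, Mtor, Cnbp, Paip1, Pan2, Pan3, Tnrc6b, Ythdf3, Pabpc1, Rack1, the collagens and the cumulus and stroma markers) were named after their values were seen. Alternatives were median-of-ratios factors, library totals, no filter, a minimum of 10 CPM in 4 libraries, limma 3.58.1 voom with library weights, DESeq2 1.42.0, a block on replicate number, removal of a length trend (loess, span 0.5), each library left out, an adjusted p of 0.01 and, added after the data were seen, the Larp1b rows summed. Permutation tests used scipy 1.17.1.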

Additional observations from a re-analysis of the deposited data

Results flagged for a closer look

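Of 84 groups of 4 oocytes examined, 8 held a value that passed Dixon's criterion, which sets the gap to the nearest neighbour against the group's range and by its construction is passed in about 1 in 20 groups by chance. The gaps took up 0.83 to 0.933 of the range. Among the Larp genes, Larp4b had 189 CPM in knockout replicate 3, against 126 to 135 CPM in the other knockout oocytes, and 391 CPM in control replicate 4, against 300.4 to 308 CPM in the other control oocytes. Larp1 had 6.30 CPM in control replicate 4, against 0 to 0.879 CPM in the other control oocytes. Among list genes, Ell2 stood at 41.1 CPM in knockout replicate 2, Myh9 at 55.5 CPM in knockout replicate 4 and Tram2 at 15.3 CPM in knockout replicate 3. Paip2 stood at 69.6 CPM in control replicate 1 and Tob1 at 3.38 CPM in control replicate 3.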

How the results depend on the processing

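The direction of Larp4, Larp4b, Larp7 and both Larp1b rows held under each alternative that tested them. Larp7 lost its call with library totals, with the replicate block and without 5 of the 8 libraries in turn. With library totals as the only scaling, 2382 genes were higher and 504 lower, in place of 1503 and 1347, and the log2 fold changes were -0.85 for the downstream row of Larp1b, -0.40 for Larp4, -0.76 for Larp4b and -0.37 for Larp7. There, 3 members of the mTORC1 list were called in place of 5. With the length trend removed, 1028 genes were higher and 2332 lower, Larp4b was at -1.44 and Larp7 at -1.32, and 1 member of the 7SK list was called. The upstream row of Larp1b was left out by the minimum of 10 CPM in 4 libraries and by summing the Larp1b rows, which leaves 0 Larp rows called higher. The mTORC1 list had 2 members called at that minimum and 3 with no filter.

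Same-numbered knockout and control oocytes did not deviate together (correlations of -0.0640, -0.0212, -0.117 and -0.0599), and no oocyte correlated best with its own number, so the numbers are not taken as pairs. With the replicate block 861 genes were lower and 1090 higher, Larp1 was at 2.39, the adjusted p of Setd1b was 0.0700, Pan2, Pan3 and Tnrc6b were not called, and the counts of members called were 4 for the La list, 1 for 7SK, 1 for mTORC1, 6 for poly(A) binding and 2 for collagen. With voom, Larp1 was at 2.79. At an adjusted p under 0.01, 747 genes were higher and 644 lower, and 3 La, 1 7SK, 1 mTORC1, 3 TOP, 6 poly(A) and 1 collagen list members were called.

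With 1 library left out at a time, genes called lower ran from 837 to 1244, Larp1 from 0.51 to 3.24, and members called from 3 to 8 (La), 1 to 2 (7SK), 2 to 4 (mTORC1), 7 to 10 (poly(A)) and 2 to 5 (collagen). The difference in genes with at least 10 counts ran from 1169.5 to 1496.8, with an exact permutation p of 0.0571, the smallest that 3 against 4 allows. Without division by length, the share of the upstream row of Larp1b differed by 1.67 percentage points in place of 4.51. Where no value is given beside a change, the cause was not tested. The counts of Larp1 and of the upstream row of Larp1b in control oocytes limit their fold changes.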

Other observations

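Zgrf1 (chromosome 3, 127553489 to 127618021, mm10), which starts 140 bases from Larp7 on the opposite strand, was looked at after the Larp7 values were seen. It had 27.1, 33.6, 35.6 and 30.0 CPM in knockout oocytes 1 to 4, against 49.1, 30.6, 36.8 and 11.3 CPM in control oocytes 1 to 4. The groups overlapped, and the log2 fold change was -0.01 ± 0.37 (SE; adjusted p = 0.984 in edgeR's quasi-likelihood test).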
